A study of Rattus norvegicus with 9 samples.

Results

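Cultured rat aortic vascular smooth muscle cells transduced with a lentivirus carrying a Myocardin-F-LSD1 sequence, called edited cells below because their titles name editing of the histone mark H3K4me2, were compared with untreated differentiated cells of the same kind across all miRNAs abundant enough to test. Of the 762 mature miRNAs in the count table, 502 had a count in some library and 304 passed the filter for low counts, and these 304 are described here. There were 3 edited, 3 PDGF-BB and 3 differentiated libraries. PDGF-BB cells had been kept for 24 h with 30 ng/ml of the BB form of platelet-derived growth factor. Their values are printed beside the others for orientation. Their libraries still entered the filter, the scaling and the fit behind the p-values for edited against differentiated cells. Of the 180 calls reported below, 154 were kept in the same direction with the 6 compared libraries alone. The protocol text, the same for every sample, states 24 h in serum-free medium before treatment, without saying whether it holds for edited and differentiated cells. Edited and PDGF-BB cells are both called de-differentiated in the titles. No library from cells with an empty lentivirus was analysed here, so the construct and the transduction cannot be told apart. The labels do not name the promoter of the construct, the time after transduction or the source of the replicates. If those share a culture, the p-values below describe technical spread only.

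A miRNA is a short RNA cut from a hairpin precursor, whose 5p and 3p arms can both be loaded into Argonaute. Bases 2 to 8 from the 5′ end, the seed, do most of the pairing with target transcripts, so miRNAs with the same seed have overlapping targets. Hairpins that lie close together are often transcribed as one precursor. Myocardin binds serum response factor and switches on contractile genes and the miR-143 and miR-145 transcript, LSD1 removes methyl groups from lysine 4 of histone H3, and H3K4me2 marks smooth muscle genes in cells of that lineage.

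The mature sequences of the miRNAs whose change or seed matters most are shown here from RefSeq (GRCr8), 5′ to 3′, with the seed in capitals. The first set fell in edited cells and holds the guide arms of the contractile miRNAs.
miR-143-3p: uGAGAUGAagcacuguagcuca
miR-145-5p: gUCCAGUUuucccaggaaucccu
miR-1-3p: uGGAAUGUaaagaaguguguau
The next set rose in edited cells, and its members come from a single genomic cluster while their seeds differ from each other.
miR-182: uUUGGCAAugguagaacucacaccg
miR-96-5p: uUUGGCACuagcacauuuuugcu
miR-183-5p: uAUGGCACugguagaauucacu
The following pairs share a seed and are shown because their members changed by different amounts or in opposite directions.
miR-146b-5p: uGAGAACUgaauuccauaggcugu
miR-146a-5p: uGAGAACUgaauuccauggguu
miR-27b-3p: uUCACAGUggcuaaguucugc
miR-27a-3p: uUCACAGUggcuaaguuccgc
miR-23b-3p: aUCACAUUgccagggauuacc
miR-23a-3p: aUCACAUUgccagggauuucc
miR-190a-5p: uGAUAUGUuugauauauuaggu
miR-190b-5p: uGAUAUGUuugauauuagguu
A last pair shares a seed and rose together.
miR-204-5p: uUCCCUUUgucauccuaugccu
miR-211-5p: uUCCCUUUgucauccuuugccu

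Library totals were 3149262, 11392178 and 7359735 counts in edited, 1982051, 2646089 and 3568888 in PDGF-BB and 1783409, 3850232 and 2138720 in differentiated cells. The 10 most abundant miRNAs took 55.0% to 64.0% of counts in edited and 69.7% to 71.2% in differentiated libraries. Levels below are CPM (counts scaled to a common library size, with TMM factors), and changes are log2 fold changes, edited over differentiated, ± SE. TMM factors are meant to correct for differences in composition and assume that most miRNAs do not change, while 59.2% of those tested passed here. With plain library totals as the scaling, the median log2 fold change moved up by 0.45. Which scaling is nearer to the true levels was not tested. Edited replicate 1 stood apart: the correlation of its log2 CPM with edited replicates 2 and 3 was 0.984 and 0.985, against 0.996 between those, and it lay nearest the differentiated mean among the edited libraries in 138 of the 180 miRNAs that passed (76.7%). The count of passed miRNAs without it was 207.

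Most miRNAs differed between edited and differentiated cells. The edgeR quasi-likelihood test passed 180 of 304 at an adjusted p under 0.05 (59.2%), 98 higher (32.2%) and 82 lower (27.0%) in edited cells. With library totals the split was 151 higher and 40 lower. The change was over 2-fold for 54 of those higher and 36 of those lower, and over 4-fold for 18 and 16. The 3 edited values did not overlap the 3 differentiated values for 193 miRNAs (63.5%), and 168 (55.3%) both passed and did not overlap. The median level of the passed miRNAs was 90.6 CPM for those higher and 90.9 CPM for those lower. In the 6 fits that leave out 1 compared library, 122 of the 180 calls were kept each time.

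**Figure D1:**
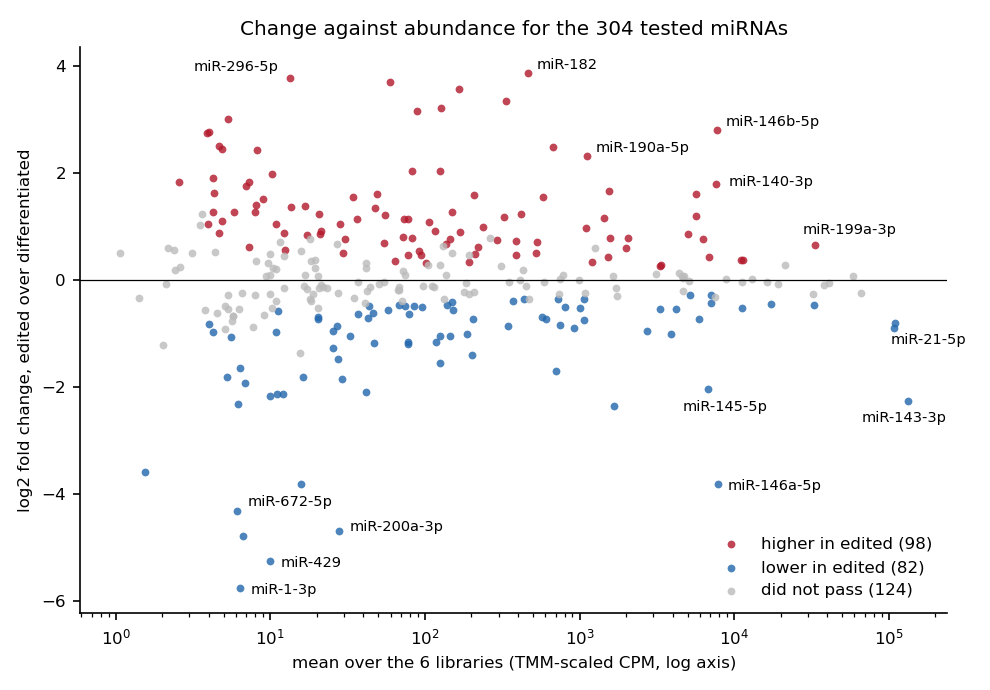
Each point is 1 of the 304 tested miRNAs, with its mean over the 6 libraries in TMM-scaled CPM on a log axis and its log2 fold change, edited over differentiated. Red points passed as higher (98), blue as lower (82) and grey did not pass (124); abundant miR-143-3p and miR-145-5p lie far below 0, while miR-146b-5p and miR-140-3p lie above it.

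The contractile miRNAs fell. miR-143-3p, which targets regulators of the actin cytoskeleton, lay at 59172, 43788 and 34170 CPM in edited, 160482, 161328 and 125180 in PDGF-BB and 223989, 200857 and 235863 in differentiated cells, so its level in edited cells was 4.82-fold lower. All edited values lay far below all others. miR-145-5p, its neighbour and a regulator of smooth muscle phenotype, was at 2980, 2848 and 2164 CPM in edited and 11062, 10435 and 11058 in differentiated cells (−2.03 ± 0.15, edgeR adjusted p = 4.6e-06). The other arms of both hairpins fell too, miR-143-5p with a log2 fold change of −2.36 ± 0.17 and miR-145-3p with −1.71 ± 0.12. miR-1-3p, a muscle miRNA, was at 1.11, 0.0682 and 0 CPM in the edited libraries, 7.74, 7.25 and 4.63 in those of PDGF-BB cells and 15.2, 11.4 and 10.3 in differentiated ones. Its log2 fold change of −5.75 ± 0.69 (edgeR adjusted p = 1.4e-04) rests on 5 counts in all edited libraries, and the change was −7.43 without edited replicate 1, −4.91 without edited replicate 2 and −5.14 without edited replicate 3. Of 7 tested arms of the muscle list 5 fell and 2 did not pass, miR-206-3p (−1.37 ± 0.95) and miR-499-5p (0.17 ± 0.18), and 4 of the 5 are from neighbouring hairpins. Over all tested miRNAs 27.0% were lower. miR-206-3p was at 19.4, 4.98 and 2.60 CPM in edited and 49.6, 7.68 and 9.20 in differentiated cells, and its change was −2.31 and passed without edited replicate 1 (edgeR adjusted p = 0.0338) but was 0.019 without differentiated replicate 1.

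The largest rises belonged to a few genomic neighbours. miR-182, best known from sensory cells, lay at 745, 809 and 1066 CPM in edited, 55.3, 82.6 and 119 in PDGF-BB and 47.7, 75.4 and 53.0 in differentiated cells, with a log2 fold change of 3.87 ± 0.30 (edgeR adjusted p = 5.5e-06). miR-96-5p was at 309, 269.8 and 337 CPM in edited and 23.2, 30.4 and 22.2 in differentiated cells, and miR-183-5p was at 617, 540.4 and 671 against 43.7, 75.4 and 59.0. All 3 were high in all edited libraries, replicate 1 included. miR-296-5p and miR-296-3p, neighbours of miR-298 in a cluster that is imprinted in mouse, rose with log2 fold changes of 3.78 ± 0.49 and 3.69 ± 0.29, the first 4.42 without differentiated replicate 2. miR-298-5p was at 164, 275 and 249 CPM in edited and 27.1, 21.6 and 26.5 in differentiated cells, and miR-298-3p, low at 4.15, 10.7 and 8.98 CPM in edited cells, rose too (2.45 ± 0.53, or 3.15 without differentiated replicate 1). For this group edited replicate 1 was the lowest edited library but lay above all differentiated libraries. miR-296-5p and miR-298-3p were over the filter cutoff of 3.18 CPM, taken without TMM factors, in no differentiated or PDGF-BB library. Both could therefore enter the test only by being high in edited cells.

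**Figure D2:**
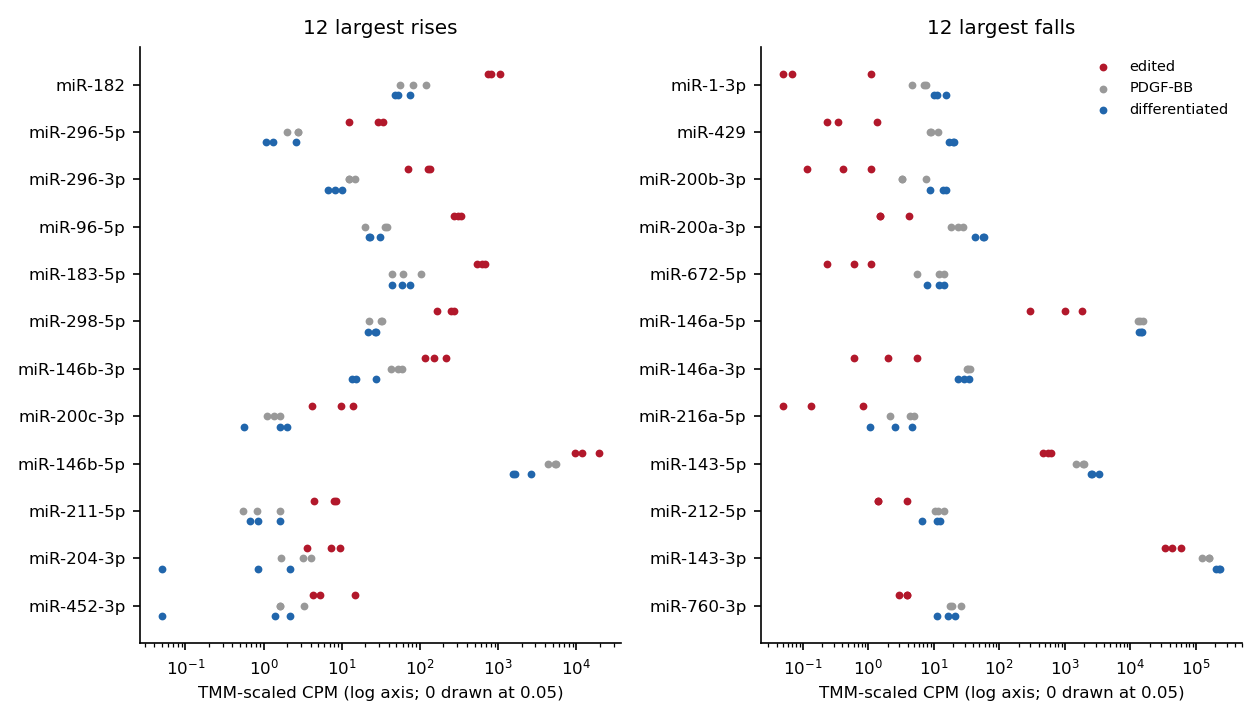
TMM-scaled CPM on a log axis for the 12 largest rises and 12 largest falls among miRNAs that passed with groups that do not overlap, 1 point per library (edited above PDGF-BB above differentiated; a value of 0 is drawn at 0.05). Edited points lie to the right of all differentiated points for each rise and to the left for each fall, also where miR-204-3p and miR-452-3p were at 0 in differentiated replicate 1.

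Members of the miR-200 family, epithelial miRNAs that repress the Zeb factors, changed in opposite directions by cluster. From one cluster, miR-429 lay at 1.38, 0.341 and 0.236 CPM in edited, 11.6, 8.86 and 8.98 in PDGF-BB and 19.9, 17.1 and 20.6 in differentiated cells, and miR-200a-3p was at 4.15, 1.5 and 1.54 in edited cells against 58.9, 43.5 and 57.3. miR-200b-3p fell by 4.79 on the log2 scale. Without edited replicate 1 the change of miR-429 was −5.84, against −5.25 with it. From the other, miR-200c-3p was at 4.15, 13.8 and 9.92 CPM in edited and 1.99, 0.569 and 1.62 in differentiated cells (3.0 ± 0.58, edgeR adjusted p = 0.00172), and miR-141-3p rose as well (1.97 ± 0.44). All 5 tested arms passed, 2 higher and 3 lower, at levels that are low in every library. Over all tested miRNAs 32.2% were higher and 27.0% lower. miR-200c-3p was over the filter cutoff of 3.18 CPM in no differentiated or PDGF-BB library. It could therefore enter the test only by being high in edited cells. miR-672-5p, on no list, also fell, to 1.11, 0.614 and 0.236 CPM in edited cells, against 7.94, 12.2 and 14.6 in differentiated cells.

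miR-146a and miR-146b, both induced by NF-kappaB and both repressors of its upstream adaptors, changed in opposite directions. miR-146b-5p was at 9488, 11657 and 19594 CPM in edited, 5504, 4282 and 5322 in PDGF-BB and 2646, 1661 and 1558 in differentiated cells, a rise of 2.80 ± 0.29 (edgeR adjusted p = 5.7e-05). miR-146a-5p was at 1825, 296 and 1010 CPM in edited, 15586, 14285 and 13301 in PDGF-BB and 14609, 15372 and 13828 in differentiated cells, a fall of 3.81 on the log2 scale (edgeR adjusted p = 2.7e-04). The passenger arms moved with the guides, miR-146b-3p by 3.16 ± 0.30 and miR-146a-3p by −3.81 ± 0.54. miR-146a-3p was at 5.54, 0.614 and 2.01 CPM in edited and 23.2, 29.3 and 34.6 in differentiated cells. Without edited replicate 1 the changes of miR-146a-5p and miR-146a-3p were −4.44 and −4.60, and without edited replicate 2 that of miR-146a-3p was −3.05. Because the 2 guides share their seed, their sum was compared too: miR-146b-5p made up 83.9%, 97.5% and 95.1% of it in edited cells and 15.3%, 9.75% and 10.1% in differentiated cells, while the sum was 14623 ± 5190 CPM in edited and 16558 ± 1021 CPM in differentiated cells (SD, n = 3 each). Summed over the seed, the change did not pass (−0.14 ± 0.21, edgeR adjusted p = 0.583). The mature sequences differ at A18G and C21U, counted from the 5′ end with the base of miR-146b-5p first, and the sources used here do not say how counting splits such reads.

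**Figure D3:**
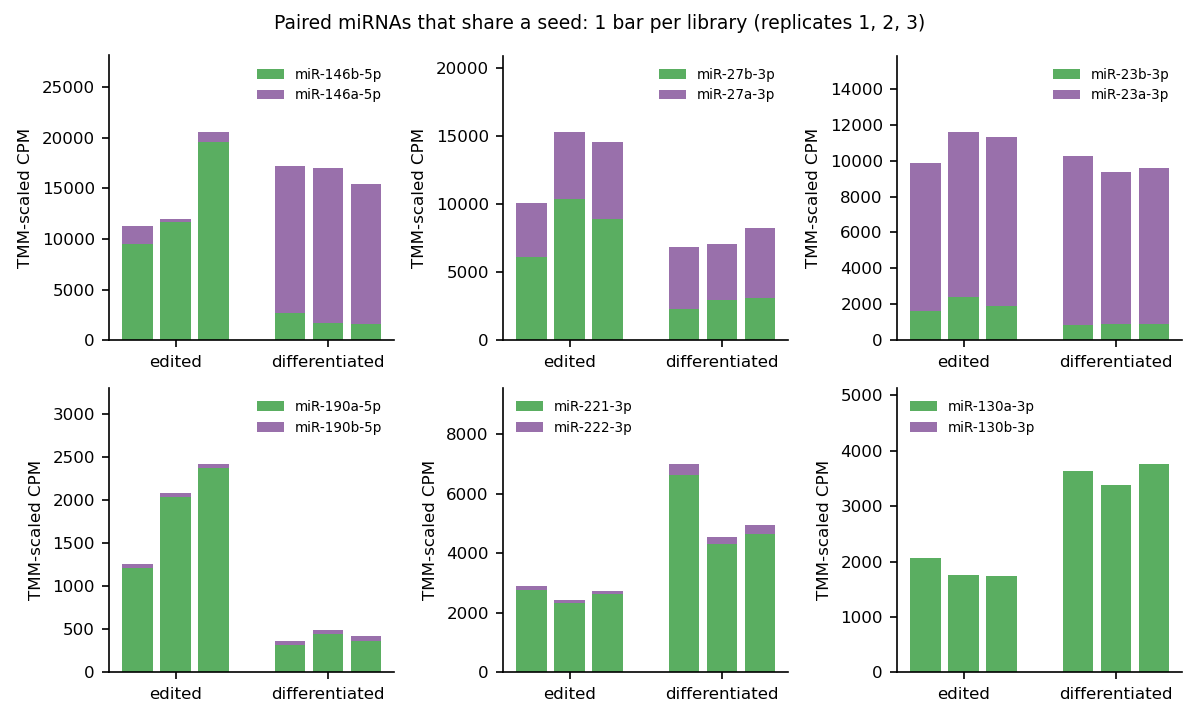
Stacked bars of TMM-scaled CPM per library (edited replicates 1 to 3 to the left of differentiated replicates 1 to 3) for 6 pairs that share a seed, with the first-named member in green and the other in purple. miR-146b-5p made up at least 83.9% of its pair in each edited library and at most 15.3% in each differentiated library.

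The b copies of miR-23 and miR-27, which act in fat and vascular cells, rose while the guides of the a copies did not pass. miR-27b-3p lay at 6110, 10422 and 8950 CPM in edited, 2171, 2480 and 2401 in PDGF-BB and 2308, 2941 and 3081 in differentiated cells (1.61 ± 0.19, edgeR adjusted p = 1.1e-04). miR-27a-3p, which differs from it only at U19C, lay at 3993, 4928 and 5629 CPM in edited and 4535, 4170 and 5166 in differentiated cells (0.069 ± 0.15). miR-27b-3p made up 60.5%, 67.9% and 61.4% of the sum in edited and 33.7%, 41.4% and 37.4% in differentiated cells. For miR-23b-3p the share of its pair was 16.5%, 20.8% and 16.7% in edited and 8.12%, 9.78% and 9.43% in differentiated cells, at a change of 1.16 ± 0.14. miR-24-3p, produced by both clusters, rose by 0.38 ± 0.097. In the list, 7 of 10 tested arms rose and 3 did not pass, beside 32.2% higher and 27.0% lower over all tested miRNAs.

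miRNAs known from cartilage and bone rose, all 7 that were tested, beside 32.2% higher over all tested miRNAs. miR-140-3p, abundant in cartilage, was at 6176, 13361 and 15924 CPM in edited, 3923, 3716 and 3128 in PDGF-BB and 3713, 2995 and 3576 in differentiated cells (1.79 ± 0.29, edgeR adjusted p = 7.4e-04). miR-204-5p, a repressor of Runx2, was at 513, 1320 and 1616 CPM in edited and 299, 162 and 159.6 in differentiated cells, so replicate 1 was lowest here too, and PDGF-BB libraries held 609, 401 and 478. miR-211-5p, which shares its seed, was at 4.43, 7.84 and 8.51 CPM in edited and 0.662, 0.854 and 1.62 in differentiated cells, and miR-204-5p made up 99.0% to 99.8% of their sum in every library. miR-204-3p rose by 2.75 on the log2 scale, or by 3.52 without differentiated replicate 3. The median log2 fold change of the list was 1.79, against −0.0064 for all 304 tested miRNAs. miR-204-3p and miR-211-5p were over the filter cutoff of 3.18 CPM in no differentiated library. The filter admitted miR-204-3p only because it was high in edited cells, so its rise is no independent part of the 7.

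miRNAs linked to smooth muscle injury and proliferation mostly fell. miR-21-5p, a growth-linked miRNA, was at 97896, 64047 and 76422 CPM in edited and 155086, 124078 and 138890 in differentiated cells (−0.81 ± 0.15), and edited replicate 1 held the highest edited value. miR-221-3p, a repressor of cell-cycle inhibitors, was at 2774, 2332 and 2619 CPM in edited, 11583, 10181 and 9710 in PDGF-BB and 6633, 4325 and 4662 in differentiated cells (−1.02 ± 0.16, edgeR adjusted p = 6.6e-04). miR-222-3p fell by 1.4 and miR-221-5p fell by 1.48 on the log2 scale. miR-132-3p, induced by CREB, was at 118, 36.9 and 38.3 CPM in edited and 243, 146 and 169 in differentiated cells, and miR-212-5p, from the same transcript, fell by 2.32. The change of miR-132-3p was −1.56 with edited replicate 1 and −2.27 without it. miR-31a-5p, at 28335, 26179 and 28107 CPM in edited and 40385, 36106 and 38025 in differentiated cells, fell by 0.47, and with library totals its change was −0.022 and did not pass. In the list 13 of 17 tested arms fell, 2 rose and 2 did not pass, beside 27.0% lower and 32.2% higher over all tested miRNAs. With library totals 10 fell and the median was −0.56, against −1.02.

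Among the other most abundant miRNAs, changes were smaller than that of miR-143-3p, the most abundant of all. miR-125b-5p fell by 0.90, at 85495, 61153 and 79027 CPM in edited and 148979, 128668 and 142359 in differentiated cells. miR-199a-3p, a mesenchymal miRNA, rose by 0.66 ± 0.13, at 33225, 43994 and 45043 CPM in edited and 25174, 28650 and 23654 in differentiated cells. let-7b-5p lay at 40637, 35725 and 44131 CPM in edited and 43025, 42109 and 40113 in differentiated cells, and neither it, let-7c-5p, let-7f-5p, let-7a-5p nor miR-16-5p passed. Summed over their shared seed, the let-7 guides differed by −0.12 ± 0.11 (edgeR adjusted p = 0.350), and 1 of 20 let-7 and miR-98 arms rose, 2 without edited replicate 1, and 0 without edited replicate 2 or 3 or differentiated replicate 1 or 3. With library totals 10 of the 20 rose, and the median of the list was 0.36, against −0.092. Without edited replicate 1 let-7c-5p (−0.31) and let-7a-5p (−0.35) passed as lower, and without edited replicate 2 miR-16-5p (0.27) passed as higher. miR-99, miR-100 and miR-125 arms, often from clusters that include let-7, fell in 8 of 11 cases with a median of −0.47, and with library totals 3 fell and the median was −0.019. Over all tested miRNAs 27.0% were lower with TMM factors.

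Among families tied to growth arrest, 8 of 12 tested arms of the miR-15/16 family and its cluster partners rose and 4 did not pass. Over all tested miRNAs 32.2% were higher and 27.0% lower. miR-322-5p, of the miR-15/16 seed family, was at 3595, 10595 and 9631 CPM in edited, 2747, 2965 and 3245 in PDGF-BB and 2916, 4058 and 3382 in differentiated cells. Edited replicate 1 lay within the differentiated range, and the change was 1.20 ± 0.32 with it and 1.58 without. miR-503-5p, from the same X-linked cluster, was at 332, 1214 and 1042 CPM in edited and 254, 369 and 259 in differentiated cells (1.55 ± 0.38 with it, 1.96 without). In that cluster 8 of 12 arms rose, 12 without edited replicate 1, 4 without differentiated replicate 3 and 2 without differentiated replicate 1, edited replicate 2 or edited replicate 3. For the miR-15/16 list the count was 4 without differentiated replicate 1, differentiated replicate 3 or edited replicate 3. The arms of miR-322 and miR-503 are counted both in this list and in the X-linked cluster. In the miR-29 family, which represses collagen and elastin, 4 of 6 arms rose, with miR-29b-3p at 4642, 6605 and 8344 CPM in edited, 9119, 8393 and 6774 in PDGF-BB and 3868, 3089 and 3863 in differentiated cells. Of 7 tested miR-34 and miR-449 arms, linked to p53, 3 rose and 2 fell. miR-34a-5p fell by 0.52, at 9010, 9885 and 8893 CPM in edited and 14660, 11879 and 13246 in differentiated cells, and with library totals (−0.060) did not pass, while miR-34c-5p rose by 0.78 ± 0.28 and passed again in 2 of the 6 fits that leave a library out. In this list 1 rose without differentiated replicate 2 or 3, and 1 fell without differentiated replicate 3, edited replicate 2 or edited replicate 3.

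**Figure D4:**
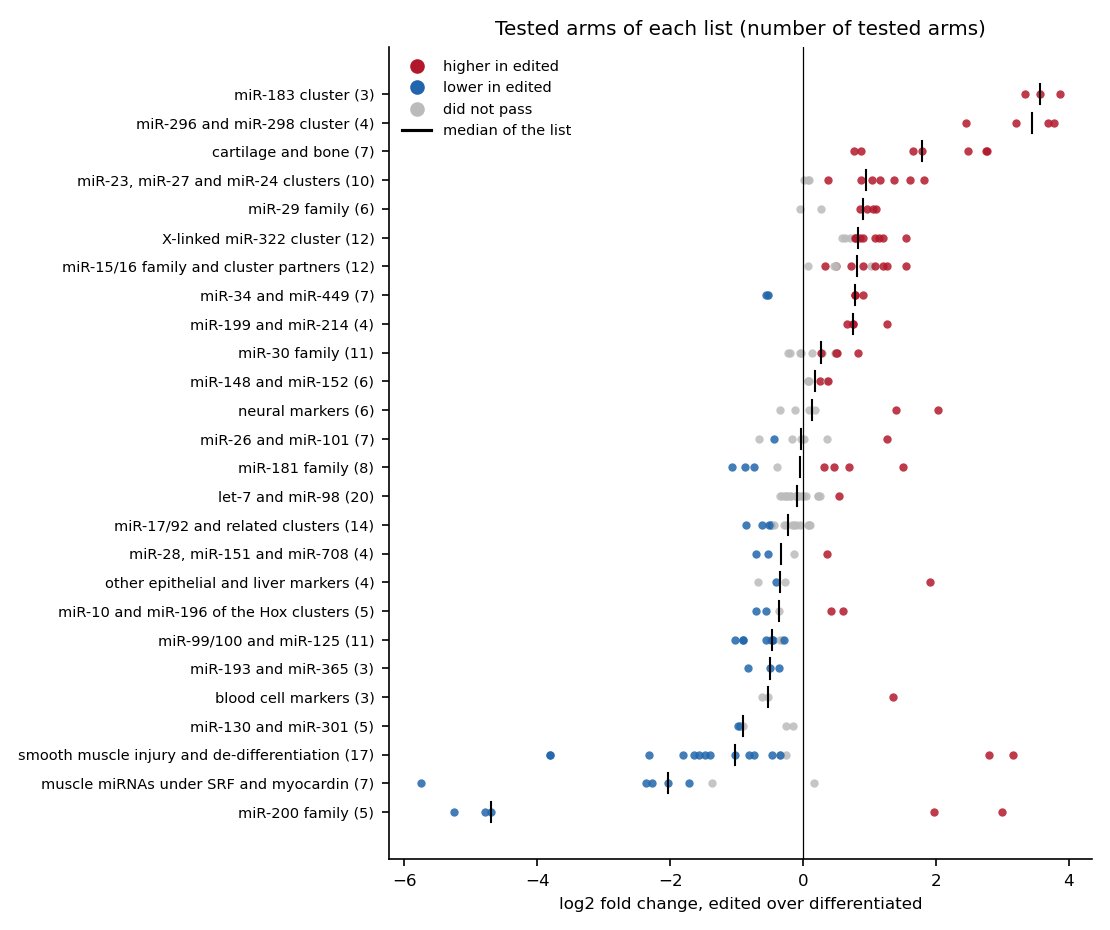
Log2 fold changes, edited over differentiated, of the tested arms of the 26 lists with at least 3 tested arms, ordered by median (black line), with the number of tested arms beside the name. Red arms passed as higher, blue as lower and grey did not pass; the miR-183 cluster and the miR-296 and miR-298 cluster lie highest, and the muscle list and miR-200 family lowest.

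The shares over all tested miRNAs, 32.2% higher and 27.0% lower, stand against the counts of the remaining lists, several of which lie near them. Of the miR-30 family 4 of 11 tested arms rose, in the miR-181 family 4 rose and 3 fell of 8, and in the miR-148 and miR-152 group 2 of 6 rose. With library totals 10 of the 11 miR-30 arms rose, 0 miR-181 arms fell and 4 of the 6 in the miR-148 group rose. All 4 arms of miR-199 and miR-214 rose. In the miR-17/92 clusters 4 of 14 fell, in the miR-130 and miR-301 family 2 of 5, and all 3 arms of miR-193 and miR-365 fell, with 0 falling for both the miR-17/92 and the miR-193 lists under library totals. These small counts depend on single libraries. For the miR-17/92 list 0 fell without differentiated replicate 2, edited replicate 2 or edited replicate 3, 1 without differentiated replicate 1 and 2 without differentiated replicate 3. For miR-193 and miR-365 0 fell without differentiated replicate 1 or edited replicate 3 and 1 without replicate 2 of either group, and for miR-130 and miR-301 4 fell without edited replicate 1 and 1 without differentiated replicate 1 or 2. The miR-30 count was 2 without replicate 3 of either group. In the miR-181 family 2 rose and 1 fell without replicate 2 of either group, and 2 rose without differentiated replicate 3, as 1 did in the miR-148 group without differentiated replicate 2 or 3. The miR-10 and miR-196 list had 2 higher and 2 lower of 5, with miR-10a-5p at 0.42 ± 0.10 and miR-10b-5p at −0.55 ± 0.097. In the miR-26 and miR-101 group 1 rose and 1 fell of 7, in the miR-28, miR-151 and miR-708 group 1 rose and 2 fell of 4, and in the miR-7 family 1 of 2 fell. The miR-7 arm did not pass without edited replicate 2, nor the fall in the miR-26 group without edited replicate 2 or 3 or differentiated replicate 1 or 3. In the miR-28 group 0 rose without edited replicate 2 or 3 and 2 without edited replicate 1 or differentiated replicate 2, and 1 fell without edited replicate 3 or differentiated replicate 2. miR-210-3p, induced by hypoxia, rose by 1.18 ± 0.25, and miR-379-5p, the 1 arm tested from the imprinted Dlk1-Dio3 locus, did not pass (−1.21 ± 0.67, but −1.69 and passed as lower without edited replicate 1).

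Markers of non-muscle cells are given by count and summed level, beside 32.2% higher and 27.0% lower over all tested miRNAs. The endothelial miR-126a arms, 2 of 2 tested, rose, with a sum between 2905 and 3346 CPM in edited libraries and between 1760 and 2145 CPM in differentiated libraries. Neural markers, of whose 19 arms 8 were at 0 in every edited and 11 in every differentiated library, summed to 858 to 1056 CPM in edited and 743 to 874 CPM in differentiated libraries, with 2 of 6 tested arms higher, a share near that of all tested miRNAs. Both come from the miR-9a hairpin, with miR-9a-5p at 134, 135 and 129 CPM in edited and 28.5, 33.0 and 35.7 in differentiated cells (2.03 ± 0.14, edgeR adjusted p = 4.6e-06). Blood cell markers summed to 76.9 to 98.7 CPM in edited and 48.7 to 73.5 CPM in differentiated libraries, and miR-150-5p rose by 1.35 ± 0.28 while both miR-142 arms did not pass, although miR-142-3p passed as lower without edited replicate 1 (−0.66, edgeR adjusted p = 0.0172). Without differentiated replicate 2, 1 blood marker passed as lower too. Other epithelial and liver markers summed to 288 to 345 CPM in edited and 375 to 424 CPM in differentiated libraries, with 1 of 4 tested arms higher and 1 lower. At most 1 of these arms passed in any fit without 1 library, and 0 without edited replicate 2 or edited replicate 3. Embryonic stem cell markers were at or near 0 in both groups, at most 0.277 CPM in any edited library. The part of other cells in the changes above was not tested.

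Many neighbouring hairpins rose or fell together. By RefSeq positions on GRCr8, 22 groups of hairpins at most 10 kb apart held at least 2 tested hairpins. Tested miRNAs without a RefSeq entry, or found in several groups, were not placed, so this is not a full count of neighbours. Among those not placed were miR-200a-3p, miR-200b-3p and miR-429. In 12 of the 22 groups arms passed only as higher, in 7 only as lower, in 0 in both directions and in 3 none passed. In 5 groups only 1 arm passed, so these could not show both directions, and of the 14 with at least 2 passed arms 9 were higher and 5 lower. The 14 are counted by arms, not hairpins. For the counts of arms below, the shares over all tested miRNAs were 32.2% higher and 27.0% lower. In the group of miR-374 and miR-421 only the arms of miR-374 passed, so it does not show neighbours moving together. The b cluster of miR-23 and miR-27 had all 4 placed arms higher, at log2 fold changes from 1.16 to 1.82. In the a cluster 1 of 4 placed arms rose, and miR-23a-5p, which was tested but not placed, rose too. A neighbouring group of miR-188, miR-362, miR-500, miR-501 and miR-532, on no list, had 4 of 6 arms higher, with miR-532-5p at 461, 616 and 685 CPM in edited and 230.3, 265 and 256 in differentiated cells. Lower groups were miR-143 with miR-145 (4 of 4 arms), miR-221 with miR-222 (3 of 4) and let-7e with miR-125a and miR-99b (4 of 6).

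**Figure D5:**
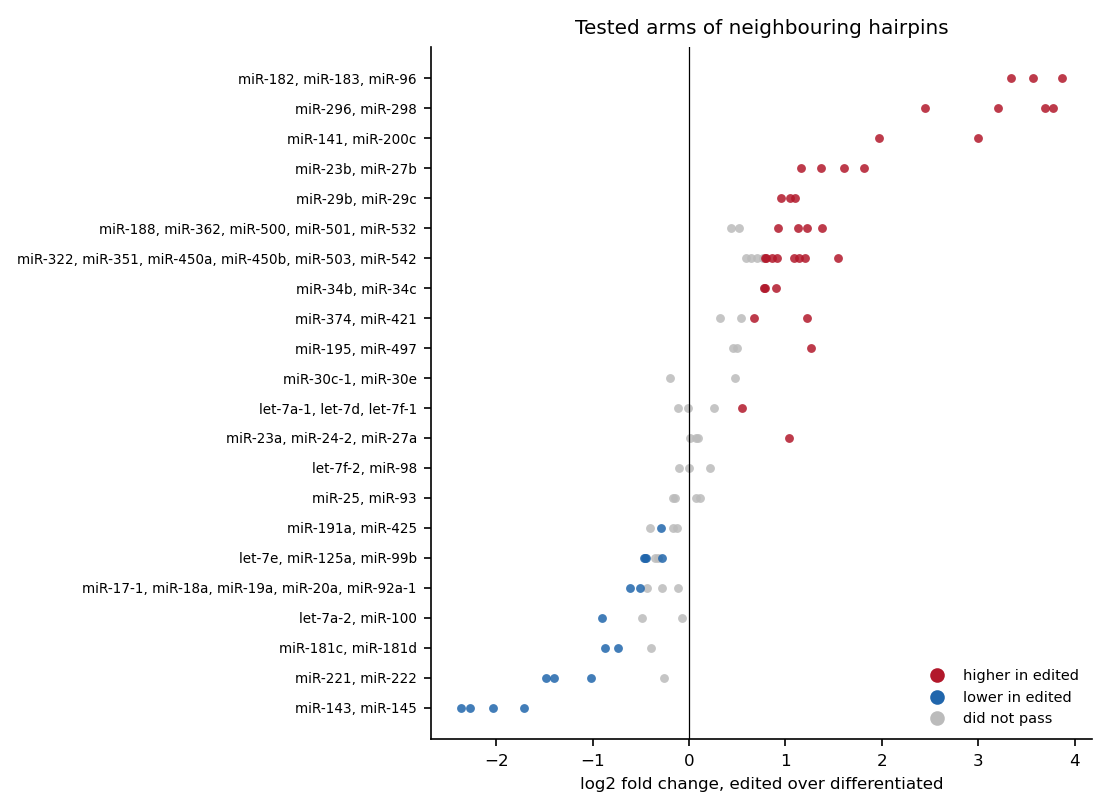
Log2 fold changes, edited over differentiated, of the tested arms placed in 22 groups of hairpins that lie within 10 kb of each other, ordered by median. No group holds both red (higher) and blue (lower) arms; the group of miR-182, miR-183 and miR-96 spans 3.34 to 3.87 and that of miR-143 and miR-145 spans −2.36 to −1.71.

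Among hairpins whose 5p and 3p arms carry the same name, the arms never passed in opposite directions. Of 98 such hairpins with both arms tested, both passed in 45, 28 higher and 17 lower, and in 0 in opposite directions. Hairpins with a copy number in the name of only 1 arm were not paired. Without edited replicate 1 the change of miR-181a-2-3p was −1.20 and that of miR-181a-5p 0.50, and both passed there. The name miR-181a-5p carries no copy number, so its copies cannot be told apart. The log2 ratio of 5p over 3p counts differed in 9 (9.18%) by limma, 3 toward 5p (3.06%) and 6 toward 3p (6.12%). Among these 9, miR-26a moved furthest toward 3p (−1.21 ± 0.34, limma adjusted p = 0.0266), with log2 ratios of 10.85, 10.63 and 10.38 in edited and 11.98, 11.52 and 12.01 in differentiated cells. Its 3p arm was low, with a seed sum of 8.15, 7.75 and 9.94 CPM in edited and 3.46, 4.03 and 2.66 in differentiated cells. With a mean of at least 50 counts required of both arms, 8 of the 9 calls were kept. miR-222 moved furthest toward 5p (1.22 ± 0.34), at −3.25, −4.13 and −3.35 in edited and −5.49, −3.86 and −5.03 in differentiated cells, where the groups overlap. These calls depend on single libraries: without differentiated replicate 1 or without edited replicate 3 the count was 0, and without differentiated replicate 3 it was 4.

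Counts summed over miRNAs with the same seed, tested or not, passed for 137 of 218 seeds (62.8%), 75 higher (34.4%) and 62 lower (28.4%). Sums are named by their tested members. Of the 34 seeds with at least 2 tested members 12 rose, 10 fell and 12 did not pass. The largest rise was that of miR-204-5p and miR-211-5p (2.51 ± 0.41), followed by miR-190a-5p and miR-190b-5p (2.21 ± 0.23), whose sum in edited cells was carried by miR-190a-5p at 96.4%, 97.4% and 98.0%, against 87.0%, 90.0% and 85.8% in differentiated cells. miR-190b-5p, at 44.6, 54.7 and 48.9 CPM in edited and 47.0, 49.2 and 60.6 in differentiated cells, did not pass. miR-450a-5p with miR-450b-5p (0.95 ± 0.28), miR-500-3p with miR-501-3p (0.90 ± 0.24) and miR-27a-3p with miR-27b-3p (0.89 ± 0.15) rose as well. Of these, the miR-450 sum did not pass without edited replicate 2 (0.76). The sum for the seed GGAAUGU, of miR-1-3p, miR-206-3p and the untested miR-1b, fell (−1.98 ± 0.76, edgeR adjusted p = 0.0439). This sum was at 22.7, 5.53 and 3.23 CPM in edited and 70.5, 21.6 and 22.9 in differentiated cells, so the groups overlap. It passed without edited replicate 1 (−2.84) and did not without differentiated replicate 1 (−1.14), edited replicate 2 (−1.62) or edited replicate 3 (−1.48). The other falls were those of miR-132-3p with miR-212-3p (−1.51 ± 0.42, or −2.13 without edited replicate 1), miR-326-3p with miR-330-5p (−1.19 ± 0.26), miR-221-3p with miR-222-3p (−1.0 ± 0.17) and miR-130a-3p with miR-130b-3p (−0.91 ± 0.13). miR-130b-3p alone did not pass without differentiated replicate 1 or differentiated replicate 2.

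Of 101 tested miRNAs on none of the lists 28 rose (27.7%) and 32 fell (31.7%), near the 32.2% and 27.0% of all tested miRNAs. miR-190a-5p was at 1211, 2034 and 2374 CPM in edited, 449, 559.6 and 644 in PDGF-BB and 314, 442 and 367 in differentiated cells (2.32 ± 0.25, edgeR adjusted p = 6.8e-05). miR-149-5p was at 117, 271 and 219 CPM in edited and 54.9, 59.5 and 33.0 in differentiated cells. miR-224-5p was highest in edited replicate 1, at 534, 186 and 223 CPM in edited and 112, 96.5 and 104 in differentiated cells, and its change was 1.59 with and 1.0 without that library. miR-103-3p, at 4947, 4410 and 4001 CPM in edited and 7896, 7091 and 7139 in differentiated cells, fell by 0.73. miR-22-3p fell by 0.54 and did not pass with library totals (−0.087).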

How the data were processed

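Small RNA libraries were made with a QIAseq kit from miRNeasy RNA and sequenced as single 75 nt reads with 30 M planned, per the labels' protocols. The values are raw counts per mature miRNA, as deposited by the authors. Per the submitters' processing notes, the build was Rnor 6.0. No source used here names an aligner, a counter or any collapsing of molecular identifiers, so floors cover counting error only. Near-identical miRNAs may share reads. A count of 0 allows up to 3 counts, which was 0.263 to 0.953 CPM in edited and 0.779 to 1.68 CPM in differentiated libraries. These floors use library totals without TMM factors, unlike the levels above.

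Samples were grouped by title, and 0 columns belonged to other samples. The main test was a quasi-likelihood fit of edgeR 4.0.16 in R 4.3.3 over the 9 libraries, with 1 mean for each group, TMM factors (1.15 to 1.29 in edited, 0.847 to 0.913 in differentiated libraries), edgeR's own low-count filter at 10 counts, and Benjamini-Hochberg adjustment over all tested miRNAs at 0.05. The filter cutoff was 3.18 CPM on library totals, without TMM factors. Of the tested miRNAs, 9 were over it in all edited and no differentiated libraries and 4 in all differentiated and no edited libraries. Unless PDGF-BB libraries were over it too, such miRNAs could enter the test only through the group where they were high. The SE was taken from the log2 fold change and the F statistic. Arm ratios used limma 3.58.1 on log2 of 5p over 3p counts with a pseudocount of 0.5. Seed sums used all 685 miRNAs of the count table with a RefSeq sequence, among them 276 of the 304 tested (90.8%). The miRNA test, which seed sums reuse, and the arm test were tested on simulated data.

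Between replicates chi-square per degree of freedom was 17.0 to 627, far above sampling noise, and each was kept as its own sample. Named miRNAs are the 12 largest rises and 12 largest falls that passed with groups that do not overlap, the 10 most abundant, the 5 smallest adjusted p, tested arms of the lists, and the 5 largest arm and seed changes each way; miRNAs on no list were chosen after their values were seen. The members, lists and comparisons were chosen with earlier results of these data known. The alternatives were another scaling, test, filter, sample set, depth, minimum fold, replicate block and leaving out each library.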

Additional observations from a re-analysis of the deposited data

How the results depend on the processing

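The count of 180 passed miRNAs was 155 with the 6 compared libraries alone, 179 with DESeq2, 182 with the replicate block, 182 with a filter blind to group and 139 to 207 when 1 library was left out. With library totals 151 miRNAs were higher and 40 lower, and for seed sums 28 were lower. Against a minimum fold of 1.5, 83 miRNAs passed (46 higher, 37 lower), and 65 seeds (39 higher, 26 lower). The arm ratios gave 14 calls with a pseudocount of 2 (6 toward 5p) and 2 with edgeR diffSpliceDGE (2 toward 3p, 0 toward 5p). Without 1 library the arm calls were 0 to 9 in all, 0 to 3 toward 5p and 0 to 7 toward 3p. The cause was not tested.

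Directions turned for some changes that did not pass in the reported test. With library totals let-7c-5p was at 0.20, let-7b-5p at 0.39, let-7f-5p at 0.34, let-7a-5p at 0.17 and miR-190b-5p at 0.38, and of these let-7b-5p and let-7f-5p passed (edgeR adjusted p = 0.00172 and 0.00216). Without the filter let-7b-5p was at 0.057, let-7f-5p at 0.012 and miR-190b-5p at 0.048. With the 6 compared libraries alone miR-23a-3p was at −0.017. Leaving out 1 library gave ranges of −0.099 to 0.076 for let-7b-5p, −0.13 to 0.047 for let-7f-5p, −0.047 to 0.27 for miR-16-5p, −0.10 to 0.027 for miR-190b-5p, −2.31 to 0.019 for miR-206-3p, −0.017 to 0.12 for miR-23a-3p and −0.015 to 0.22 for miR-27a-3p.

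Samples with equal replicate numbers deviated together with correlations of 0.14, 0.05 and 0.05, while unlike numbers reached 0.24. These few values do not show that the numbers pair the samples, and they are too few to settle it. The replicate block gave 98 higher and 84 lower, and with it miR-206-3p (−1.22, adjusted p = 0.00436) and miR-142-3p (−0.54, adjusted p = 0.0169) passed as lower by edgeR. Depth limits the low miRNAs: a count of 0 allowed up to 1.68 CPM on library totals in differentiated replicate 1.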

Other observations

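Some miRNAs under the filter for low counts were far apart between the groups and were not tested. miR-708-5p had 7, 273 and 49 counts in edited, 2, 1 and 0 in PDGF-BB and 0, 2 and 0 in differentiated libraries. Most of the edited counts lay in replicate 2, the deepest library. miR-183-3p, the passenger arm of miR-183, had 10, 31 and 35 counts in edited and 0, 2 and 0 in differentiated libraries. miR-133a-3p, a muscle miRNA, had 4, 2 and 0 counts in edited and 10, 8 and 8 in differentiated libraries, although the edited libraries are mostly deeper. miR-592 had 0, 0 and 0 counts in edited and 3, 15 and 5 in differentiated libraries. miR-452-5p had 18, 21 and 12 counts in edited and 1, 2 and 2 in differentiated libraries, and its partner miR-452-3p, which was tested, was at 14.7, 4.29 and 5.32 CPM in edited and 0, 1.42 and 2.16 CPM in differentiated libraries. The change of miR-452-3p was 2.50 with all libraries and 1.87 without edited replicate 1, and it did not pass without differentiated replicate 2 (edgeR adjusted p = 0.0518).

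Further miRNAs on no list changed. miR-1843a-5p lay at 25.5, 13.8 and 9.22 CPM in edited, 46.5, 43.9 and 33.2 in PDGF-BB and 69.5, 52.1 and 79.0 in differentiated cells. miR-466c-3p was at 46.2, 48.2 and 60.3 CPM in edited and 13.2, 21.3 and 16.8 in differentiated cells. miR-218a-5p was at 757, 789 and 861 CPM in edited and 1305, 1342 and 1387 in differentiated cells, with a fall that did not pass under library totals (adjusted p = 0.0713, edgeR). These were chosen after their values were seen.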
